A study of Eurytemora affinis with 4 samples.

Results

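The 8 scaffolds Scaffold174, Scaffold259, Scaffold271, Scaffold303, Scaffold346, Scaffold401, Scaffold462 and Scaffold530 of the genome of *Eurytemora affinis*, a small planktonic crustacean of brackish water, carried 504 of the 61672 transcribed loci that the authors compared between the sexes. The scaffolds were chosen by the sex difference itself, as scaffolds on which loci with lower values in males lie close together. On 5 of them such loci include a group with strongly negative male over female fold changes. Their calls, fold changes and levels are therefore given as a description and support nothing further. In a copepod the sexes are separate, and an adult female carries ovaries in which oocytes are provisioned with yolk and maternal RNA, whereas an adult male carries a testis and the tissues that form sperm packets. A whole-animal extract mixes these reproductive tissues with every other tissue. A scaffold is a piece of an assembled genome, so the order of loci within one is known and the order of the scaffolds on chromosomes is not used here.

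The animals were adult males and adult females reared in culture at 13 °C and 15 PSU of salinity under 15 h of light and 9 h of dark. Sexes were kept apart for the last 2 days, and all animals were starved for the last 24 h with 6.0 µm beads at 120 µL per L, which clear the gut. Poly(A) RNA of pooled whole animals was sequenced with its strand kept, from 2 male and 2 female libraries, and whether each pool had a culture of its own is not in the labels. Since whole animals were homogenised, fewer cells of a type and less RNA per cell cannot be told apart. No value per library was analysed here: each level is the authors' pooled value per sex, in FPKM (fragments scaled by transcript length and by sequencing depth), and has no error between replicates. All fold changes are male over female, so a negative log2 value means lower in males.

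No gene name stands beside a locus in the files, so loci are given by ID and by position, counted from 1, and the sources used here do not give the build of the assembly. A locus is called male-biased or female-biased when the authors' edgeR comparison of read counts gave it an adjusted p under 0.05, with the sign of its fold change. A run is a group of 4 or more such loci with a log2 fold change of -4 or lower, successive ones at most 50000 bases apart. The second comparison of the authors, Cuffdiff, tests FPKM and gives each locus a status: OK for tested, NOTEST for too few fragments and HIDATA for too many. Of the 504 loci, 368 had the status OK, 134 NOTEST and 2 HIDATA, and 284 were in the edgeR table. Reads per sex were estimated from the edgeR columns, came to about 2609000 male and 2519000 female reads over the series, and measure how many fragments stand behind a fold change. Intervals on them cover counting error only.

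The name female-biased runs fits 5 of the 8 scaffolds. Scaffold174, Scaffold259, Scaffold303, Scaffold346 and Scaffold401 each carried a run of strongly female-biased loci, 26 loci in all, whereas Scaffold271, Scaffold462 and Scaffold530 carried none by the rule above. By the same rule the whole series held 8 runs with 38 loci, so such runs also occurred on scaffolds outside these. With overlapping loci counted once, runs of 10 positions on 2 scaffolds were left, and with Cuffdiff's fold change and call 4 loci on 1. On Scaffold271, Scaffold462 and Scaffold530, called loci were mostly lower in males by smaller amounts, with GENE_0028914 on Scaffold271 as the exception in size. Among the 284 loci tested by edgeR, 21 were male-biased and 65 female-biased in the authors' deposited table, beside 8.4% and 9.58% of all 37449 loci tested in the series. By Cuffdiff 27 loci were male-biased and 71 female-biased, beside 7.06% and 10.4% of all loci tested there. Both tools called 40 loci female-biased, and the share of the series that both called is not given here.

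Both directions occurred on the scaffolds. Of the 192 loci with at least 1 FPKM in one sex or the other, 75 had the higher value in males and 117 in females, beside 50.2% of such loci in the series with the higher value in females. The median log2 ratio of male to female FPKM, after adding 0.1 FPKM to each, was -0.84 (95% interval over loci -1.15 to -0.32), beside -0.01 over the whole series. By scaffold the median was 0.29 on Scaffold174 (95% interval -1.57 to 0.78), 0.36 on Scaffold259 (-0.84 to 0.76) and 0.64 on Scaffold303 (-4.50 to 1.21). It was -0.46 on Scaffold346 (-3.09 to -0.03) and -0.72 on Scaffold401 (-1.58 to 1.18). On the scaffolds without a run it was -1.50 on Scaffold271 (-1.73 to -0.84), -1.45 on Scaffold462 (-1.76 to -1.01) and -0.90 on Scaffold530 (-1.55 to 0.93). The intervals of Scaffold174, Scaffold259, Scaffold303, Scaffold401 and Scaffold530 include 0. All these intervals treat loci as independent, although 190 of the 504 loci overlap another, and the scaffolds were chosen by the sex difference. They are descriptions and no test of direction for any scaffold as a whole.

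The 26 run loci stood at 19 positions, and 15 of them overlap another listed locus. Overlapping loci can be listed with the same start and end, so a listed position may not be the extent of each locus. Their authors' pooled FPKM ranged from 0 to 6.88 in males, with a median of 0.0699, and from 0 to 173 in females, with a median of 2.80. The female value was higher at 24 of them, and the other 2 were listed at 0 in both sexes. Estimated reads over the 26 loci came to 277 in males and 8346 in females. Of the 26, 8 had no male read, 7 had 1 to 3 and 11 had more. A fold change against no reads is set by the small count that edgeR adds to each library. The edgeR fold changes of those 8 are therefore no measured sizes, and they include the lowest value of the ranges given below for Scaffold174, Scaffold259 and Scaffold346. For the size of the difference at those 8, an approximate lower bound is given. It was computed against 3 male reads over the sex and scaled by the normalised library sizes that edgeR's added counts imply. It leaves out the counting error of the female reads, so it is less strict than the counting intervals given for other loci. Loci with a log2 fold change of -4 or lower and an adjusted p under 0.05 made up 1.46% of all tested loci.

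**Figure D1:**
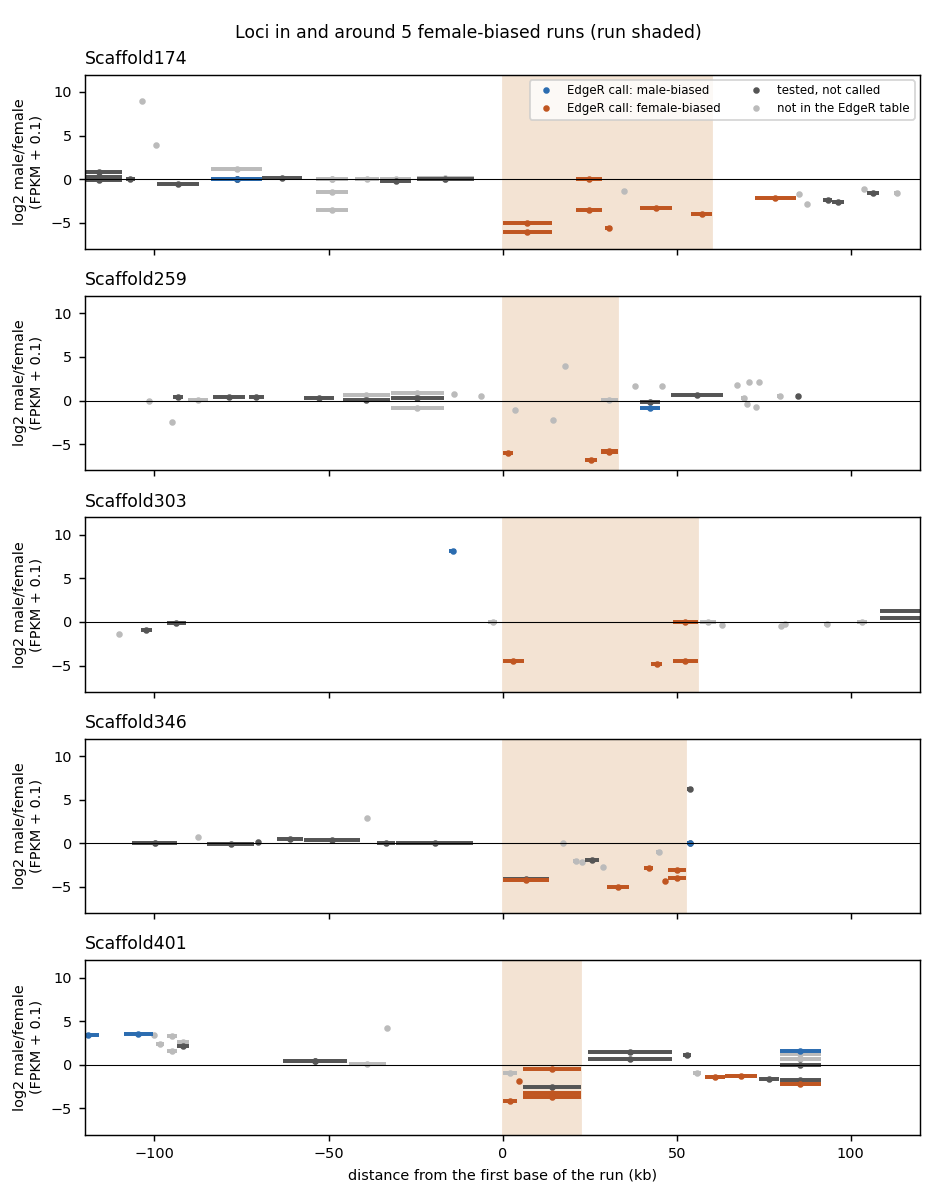
Loci from 120 kb before to 120 kb after the first base of each of the 5 runs, with distance in kb on the x axis and the log2 ratio of male to female FPKM (0.1 FPKM added to each) on the y axis. Bars span each locus, dots mark its middle, colours give the authors' edgeR call and the shaded area is the run. Run loci lie well below zero and their neighbours on both sides of it. The exceptions are run loci drawn at zero on Scaffold174 and Scaffold303, which are listed at 0 FPKM in both sexes, and GENE_0148986 on Scaffold401, which is below 0.1 FPKM in both. A male-biased locus is drawn high before the run of Scaffold303. The locus drawn high after the run of Scaffold346, GENE_0143323, was not called by edgeR. The male-biased GENE_0143322 at its position is drawn near zero, and the male-biased GENE_0103304 after the run of Scaffold259 is drawn at -0.88.

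Scaffold174 carried the run with the most loci and the highest summed female FPKM, 4.26 FPKM in males and 206 FPKM in females. Its 127 loci cover bases 789 to 877958, and the run at bases 709554 to 769773 held 7 loci at 5 positions. The authors' deposited table gives them log2 fold changes between -6.04 and -4.27. The first position, bases 709554 to 723712, holds 2 overlapping loci. GENE_0025708 had 0.376 FPKM in males and 15.4 FPKM in females, which rest on an estimated 6 male and 242 female reads. GENE_0051367 had 0.0790 FPKM in males and 11.6 FPKM in females on no male and 17 female reads, which makes it at least 5.13-fold lower in males. The pair at bases 730511 to 737974 had different values by the 2 tools. GENE_0120094 was listed at 0.0467 FPKM in males and 1.59 FPKM in females with 2 male and 111 female reads. GENE_0120096 was listed at 0 in both sexes with the status NOTEST, although edgeR's columns give it 1 male and 26 female reads, a log2 ratio of -4.56 (counting interval -9.91 to -1.95).

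The last 3 loci of the run on Scaffold174 overlap no other locus. GENE_0120097, at bases 739029 to 740907, had the highest female level of all 26 run loci, with 3.55 FPKM in males and 173 FPKM in females on 9 male and 449 female reads. GENE_0013000, at bases 749072 to 758125, had 0.131 FPKM in males and 2.11 FPKM in females, yet 42 male and 1488 female reads, more than 3 times the female reads of GENE_0120097. GENE_0058556, at bases 763784 to 769773, had 0.0754 FPKM in males and 2.70 FPKM in females on 14 male and 735 female reads. The order of these 3 loci by level thus depends on the measure, with GENE_0120097 first by FPKM and GENE_0013000 first by reads. The 1 locus between them, GENE_0021953, was listed at 0 FPKM in males and 0.154 FPKM in females and was not tested.

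The run on Scaffold174 ended gradually on the right. Before it, the nearest locus with at least 1 FPKM was GENE_0120086, 44456 bases away, listed at 0 FPKM in males and 1.10 FPKM in females. Cuffdiff did not call GENE_0120086, and it was not in the edgeR table. After it, 12162 bases away, GENE_0050141 was itself female-biased, with 0.243 FPKM in males and 1.46 FPKM in females (log2 fold change -2.29 in the authors' deposited table). Among loci of at least 1 FPKM, 9 in a row had the higher value in females, from base 655900 to base 817651. Over the 572 scaffolds with at least 25 loci, the longest such row had a median of 5 loci and reached 25. Apart from the run, GENE_0120046 at bases 431482 to 436197 had 1.59 FPKM in males and 58.0 FPKM in females (log2 fold change -5.01, the authors' deposited table). With GENE_0120045 at the same position, GENE_0120071 from base 580145 and GENE_0028914 on Scaffold271, it makes up the 4 of 30 loci past the fold limit that stand outside the runs.

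The other end of Scaffold174 held loci with higher values in males. Between bases 47733 and 59296, 6 loci in a row were called male-biased by edgeR or Cuffdiff, of which 5 were listed at 0 FPKM in females. Of the 6, edgeR called only GENE_0119980. GENE_0068356 and GENE_0048562 were tested by edgeR and not called, on 2 male reads and no female read each, and the rest were not in the edgeR table. The most abundant of them, GENE_0119980 at bases 48806 to 52402, had 263 FPKM in males and 0.0617 FPKM in females on an estimated 1473 male reads and no female read. GENE_0031226, at bases 216597 to 230320, had 5.64 FPKM in males and 0.0982 FPKM in females (log2 fold change 6.94, the authors' deposited table). Its neighbour from base 230674, GENE_0042157, was female-biased at 0.188 FPKM in males and 1.36 FPKM in females, so opposite calls stood side by side.

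Scaffold259 carried a sparse run of 4 loci among 92. The run at bases 492859 to 525983 held 3 positions and rested on only 3 male and 247 female reads in all. Log2 fold changes between -7.51 and -4.98 are listed for them in the authors' deposited table. GENE_0132981, at bases 492859 to 495756, had 0.665 FPKM in males and 48.6 FPKM in females and carried all 3 male reads beside 179 female reads, a log2 ratio of -5.75 (counting interval -8.05 to -4.18). GENE_0132983, at bases 516571 to 520069, had 0.0306 FPKM in males and 14.6 FPKM in females on no male and 49 female reads, at least 14.8-fold lower in males. The overlapping loci GENE_0132984 and GENE_0132985 at bases 521024 to 525983 rest on no male reads and on 8 and 11 female reads. Their bounds are at least 2.41-fold and at least 3.32-fold lower in males, although GENE_0132984 was listed at 0.377 FPKM in males and 27.6 FPKM in females.

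Loci between the members of the run on Scaffold259 went both ways. None of the 4 loci between its members was in the edgeR table, and 2 of them had the higher FPKM in males. GENE_0023880, at bases 510594 to 510865, had 2.74 FPKM in males and 0.0768 FPKM in females and was not called by Cuffdiff. GENE_0020649, at bases 506960 to 507569, was listed at 0 FPKM in males and 0.381 FPKM in females and was called female-biased by Cuffdiff. The flanks with at least 1 FPKM were GENE_0132967, 48368 bases before the run with 1.20 FPKM in males and 0.935 FPKM in females, and GENE_0182001, 37558 bases after it with 1.32 FPKM in males and 0.226 FPKM in females. Both had the higher value in males, and neither was called, although GENE_0182001 was not in the edgeR table.

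Between the run on Scaffold259 and its right flank stood the locus with the most reads of the 8 scaffolds. GENE_0103304, at bases 532185 to 538013, had an estimated 11726 male reads and 1 female read (log2 fold change 13.25, the authors' deposited table). Cuffdiff gave it the status HIDATA with 0 FPKM in males and 0.0841 FPKM in females, so its FPKM carries no level. It overlaps GENE_0132989, the other HIDATA locus. This locus alone makes up most of the 13161 male reads of Scaffold259, so the run held 0.0228% of the male reads and 17.8% of the female reads there.

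Scaffold303 carried the run with the most reads in males and the smallest median fold change. Its 4 loci at bases 341992 to 398096 stood with no other locus between them. In the authors' deposited table their log2 fold changes lay between -4.78 and -4.06, with a median of -4.33. GENE_0139082, at bases 341992 to 348048, had 1.43 FPKM in males and 34.4 FPKM in females on 53 male and 988 female reads. GENE_0139084, at bases 384637 to 387803, had 1.97 FPKM in males and 60.3 FPKM in females on 16 male and 478 female reads. GENE_0139086, at bases 390910 to 398096, had 3.93 FPKM in males and 91.7 FPKM in females on 84 male and 1631 female reads. Each of these 3 loci had 16 or more male reads, so none of their fold changes rests on the added count, and both tools called all 3. GENE_0139087 shares the position of GENE_0139086 and was listed at 0 FPKM in both sexes, although edgeR's columns give it 19 male and 500 female reads.

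By estimated reads, which cover only loci tested by edgeR, the run made up most of the female total of Scaffold303. It held 7.17% of the scaffold's male reads and 88.5% of its female reads, and reads may be shared by its 2 overlapping loci. By summed FPKM the share depended on 1 short locus. The run's 186 FPKM in females stood beside 1478090 for the scaffold, of which GENE_0139069, not in the edgeR table, was listed at 1477830. Without loci under 300 bases the run held 78.9% of the female FPKM. The nearest loci of at least 1 FPKM beyond its edges were higher in males. GENE_0139080 stood 13248 bases before it, at bases 326542 to 328743, with 307 FPKM in males and 0.977 FPKM in females on 934 male and 2 female reads (log2 fold change 8.76, the authors' deposited table). A second male-biased locus of that kind, GENE_0139054 at bases 89527 to 91437, had 229 FPKM in males and 0.430 FPKM in females. On the right, GENE_0038880 stood 52301 bases away with 9.44 FPKM in males and 4.02 FPKM in females and was not called. edgeR thus called 4 loci in each direction among the 21 tested on the scaffold.

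Scaffold346 carried the run with the lowest summed FPKM, 0.349 FPKM in males and 14.9 FPKM in females. Its 6 loci at bases 400907 to 453564 had 12 male and 517 female reads in all. For these loci the authors' deposited table lists log2 fold changes between -6.47 and -4.57. GENE_0085280, at bases 430819 to 437244, had the highest female level, with 0.0709 FPKM in males and 5.43 FPKM in females on 7 male and 272 female reads. GENE_0004512, at bases 400907 to 414089, had 0.0607 FPKM in males and 2.90 FPKM in females on 4 male and 172 female reads. The remaining 4 loci had at most 1 male read each. GENE_0143318, at bases 441423 to 444234, had no male and 23 female reads, at least 6.94-fold lower in males, and GENE_0143319, at bases 446970 to 448130, had no male and 8 female reads, at least 2.41-fold lower. The overlapping GENE_0143320 and GENE_0143321 at bases 448318 to 453564 had 1 and no male reads beside 32 and 10 female reads. GENE_0143321 was at least 3.02-fold lower in males.

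Loci between the members of the run on Scaffold346 leaned the same way at low levels. There were 7, of which 6 had the higher FPKM in females. GENE_0050463, which shares the first position, was listed at 0 FPKM in males and 1.54 FPKM in females on 2 female reads, and was not called. GENE_0143315, at bases 429351 to 430120, was listed at 0 FPKM in males and 0.568 FPKM in females and was called female-biased by Cuffdiff. On the left the nearest locus of at least 1 FPKM, GENE_0103263, lay 71305 bases away with 5.25 FPKM in males and 5.38 FPKM in females.

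On the right the direction turned within 301 bases, the shortest edge of the 5 runs. GENE_0143323, at bases 453866 to 455481, had 39.9 FPKM in males and 0.414 FPKM in females and was called male-biased by Cuffdiff, but edgeR's columns give it 3 male reads and no female read and no call. GENE_0143322 at the same position was male-biased by edgeR on 58 male reads and no female read, while its FPKM was 0 in males and close to 0 in females. These overlapping loci are the last listed on Scaffold346. Near its other end, GENE_0143282 at bases 52110 to 55585 was male-biased by edgeR on 87 male reads and no female read, and had the status NOTEST.

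Scaffold401 carried the shortest run and the most overlap. The 5 loci at bases 277908 to 300463 stood at 3 positions on 16 male and 917 female reads, and the authors' deposited table lists log2 fold changes between -6.60 and -4.01. GENE_0148987, at bases 283671 to 300463, had 0.0688 FPKM in males and 2.07 FPKM in females on 11 male and 617 female reads. GENE_0148983 at the same position had 2 male and 230 female reads, a log2 ratio of -6.70 (counting interval -9.76 to -4.83), and GENE_0148986 there had 2 male and 38 female reads. Also at that position, GENE_0148985 had 5 male and 6 female reads and was not called, so loci listed at the same position differed in their call. GENE_0148981, at bases 277908 to 281902, had 1 male and 24 female reads.

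The tools differed in the level of GENE_0041833 of the same run, at bases 282303 to 283182. It had the highest male FPKM of the 26 run loci, 6.88 FPKM in males beside 26.0 FPKM in females, a 3.77-fold lower male value. edgeR's columns give it no male and 8 female reads, at least 2.41-fold lower in males, and its log2 fold change was -4.98 by edgeR and -1.92 by Cuffdiff in the authors' deposited table. The left flank of the run was GENE_0148979, 33236 bases away, with 1.74 FPKM in males and listed at 0 in females. The right flank was GENE_0012928, 41436 bases away and itself female-biased, with 6.88 FPKM in males and 16.7 FPKM in females.

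A male-biased streak lay upstream on Scaffold401. From base 113229 to base 178154, 5 loci in a row were called male-biased by edgeR or Cuffdiff, with 0.242 to 4.53 FPKM in males and at most 0.135 FPKM in females. GENE_0026651, at bases 169053 to 177350, had 2.26 FPKM in males and 0.110 FPKM in females on 28 male reads and no female read. GENE_0148968, at bases 140381 to 144120, had the highest male level, 4.53 FPKM in males and 0.135 FPKM in females.

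**Figure D2:**
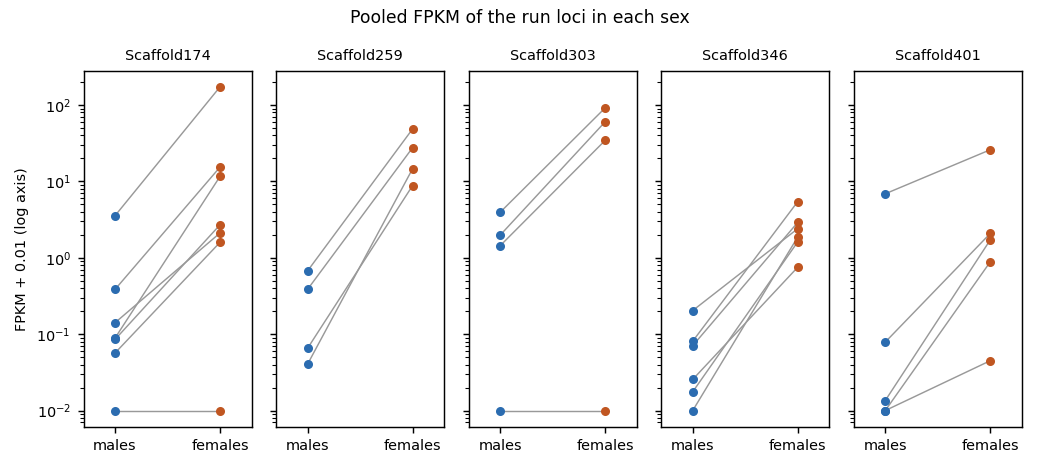
The authors' pooled FPKM of each of the 26 run loci in males (left) and females (right), one panel per scaffold, on a log axis after adding 0.01 FPKM. Each line is 1 locus and has no error bar, since there is 1 pooled value per sex. Lines climb to females at 24 loci, and flat lines at the bottom are the loci listed at 0 in both sexes.

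**Figure D3:**
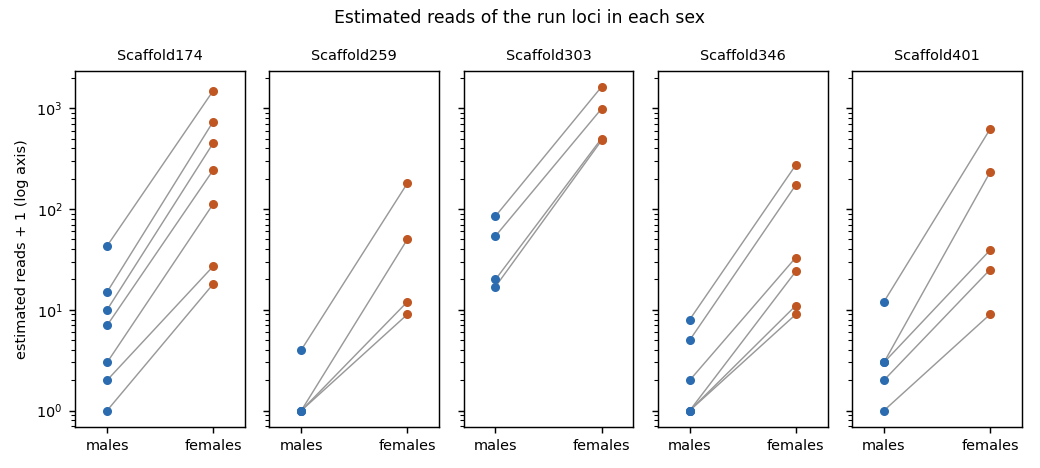
Estimated reads of the 26 run loci in males (left) and females (right), one panel per scaffold, on a log axis after adding 1 read. Each line is 1 locus, and points at 1 on the axis have no read. Male reads reach 84 on Scaffold303 and 42 on Scaffold174, and at most 11 on the other 3 scaffolds.

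The runs took a small part of the male reads of their scaffolds and a larger part of the female reads, counted over loci tested by edgeR. By estimated reads the run held 1.95% of the male and 59.4% of the female reads of Scaffold174, 1.03% of the male and 36.2% of the female reads of Scaffold346, and 0.663% of the male and 23.8% of the female reads of Scaffold401. Over all 8 scaffolds the runs held 1.08% of male reads and 38.2% of female reads. These shares follow from the rule that chose the loci and are no separate finding.

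Over the 5 runs, 14 loci lay between the members, and 11 of them were not in the edgeR table. The 3 that edgeR tested were not called. Of the 14, 3 had the higher FPKM in males and 11 in females, and only 2 reached 1 FPKM in either sex. The loci that interrupt the runs were therefore mostly at or near the bottom of the range in both sexes, and their values carry little depth. Low FPKM was not particular to them, since 5 of the 26 run loci were also below 1 FPKM in both sexes. Some of the 14, such as GENE_0050463 and GENE_0148985, share the listed position of a run locus.

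Among female-biased loci, the fold limit of -4 fell into a gap in the values. Just inside the limit were GENE_0148986 on Scaffold401 at -4.01 and GENE_0139082 on Scaffold303 at -4.06 in the authors' deposited table. Just outside were GENE_0017642 on Scaffold271 at -2.86 and GENE_0069327 on Scaffold462 at -2.79 in the same table. GENE_0120062 on Scaffold174 and GENE_0134710 on Scaffold271 had -4.02 in the authors' deposited table but no call (edgeR adjusted p = 0.357 for each), on no male and 4 female reads. No female-biased locus of the 8 scaffolds fell between the inner and the outer pair. Tested loci without a call lay there, among them GENE_0052092 on Scaffold174 at -3.64 in the authors' deposited table, on no male and 3 female reads.

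Scaffold271 combined 1 strongly biased locus with moderate bias at others. edgeR called 13 of its 34 tested loci female-biased and 1 male-biased, and the authors' deposited table gives the 13 a median log2 fold change of -1.46. GENE_0028914, at bases 192378 to 210838, had 6.71 FPKM in males and 321 FPKM in females on 12 male and 542 female reads, the highest female FPKM of any called locus on the 8 scaffolds. It overlaps 4 other loci, of which GENE_0062753 had 2.06 FPKM in males and 1.41 FPKM in females. Next to it, at bases 212507 to 214090, GENE_0028075 had 18.9 FPKM in males and 54.2 FPKM in females.

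Other called loci of Scaffold271 lay on both sides of GENE_0028914. To the left, GENE_0017642 at bases 166997 to 172884 had 1.40 FPKM in males and 11.0 FPKM in females, and GENE_0134714 at bases 173722 to 175768 had 7.04 FPKM in males and 29.5 FPKM in females. To the right, GENE_0041199 at bases 504089 to 512291 had 4.44 FPKM in males and 13.7 FPKM in females. Among the 32 loci of at least 1 FPKM, 7 had the higher value in males and 25 in females. The 1 male-biased locus, GENE_0104619 at bases 8950 to 44164 near the start, had 0.859 FPKM in males and 0.445 FPKM in females.

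Scaffold462 showed the longest unbroken order of the sexes among the 8. Of its 21 loci with at least 1 FPKM, 3 had the higher value in males and 18 in females, and 11 in a row had it in females from base 24696 to base 203227. Over those 11 the log2 ratio of FPKM ranged from -3.58 to -1.01, with a median of -1.59. Over the 572 scaffolds with at least 25 loci the longest such row had a median of 5 loci and reached 25, so a row of 11 stood within that range. edgeR called 8 of the 24 tested loci female-biased and none male-biased, and Cuffdiff called 13 female-biased and none male-biased.

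Scaffold462 held abundant and scarce loci with lower values in males. GENE_0040015, at bases 145435 to 149631, had 24.4 FPKM in males and 49.0 FPKM in females and was called by Cuffdiff only. GENE_0069327, at bases 167562 to 174887, had 2.99 FPKM in males and 10.3 FPKM in females, and in the authors' deposited table its -2.79 was the lowest log2 fold change of the 8 called by edgeR. GENE_0103606, at bases 241107 to 256309, was the 1 locus of the scaffold in the authors' set shared by 3 methods, with 0.556 FPKM in males and 1.74 FPKM in females. The row ended at base 203227, after which GENE_0103362 at bases 222292 to 230728 had 5.31 FPKM in males and 4.81 FPKM in females and was not called.

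Scaffold530, the smallest in loci with 29, had its female-biased loci in the first part of its length. edgeR called 6 of 18 tested loci female-biased and none male-biased, and the authors' deposited table lists log2 fold changes between -1.67 and -1.03. GENE_0159120, at bases 86965 to 93361, had 8.67 FPKM in males and 29.2 FPKM in females. GENE_0159116, at bases 48202 to 64766, had 3.29 FPKM in males and 7.60 FPKM in females. From base 48202 to base 132881, 6 loci of at least 1 FPKM in a row had the higher value in females. A row of that length is common, since 335 of the 572 scaffolds with at least 25 loci had one of 5 or more. Near its start stood 2 loci that Cuffdiff called male-biased, at bases 10411 to 18344, with at most 1.44 FPKM in males and at most 0.490 FPKM in females.

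**Figure D4:**
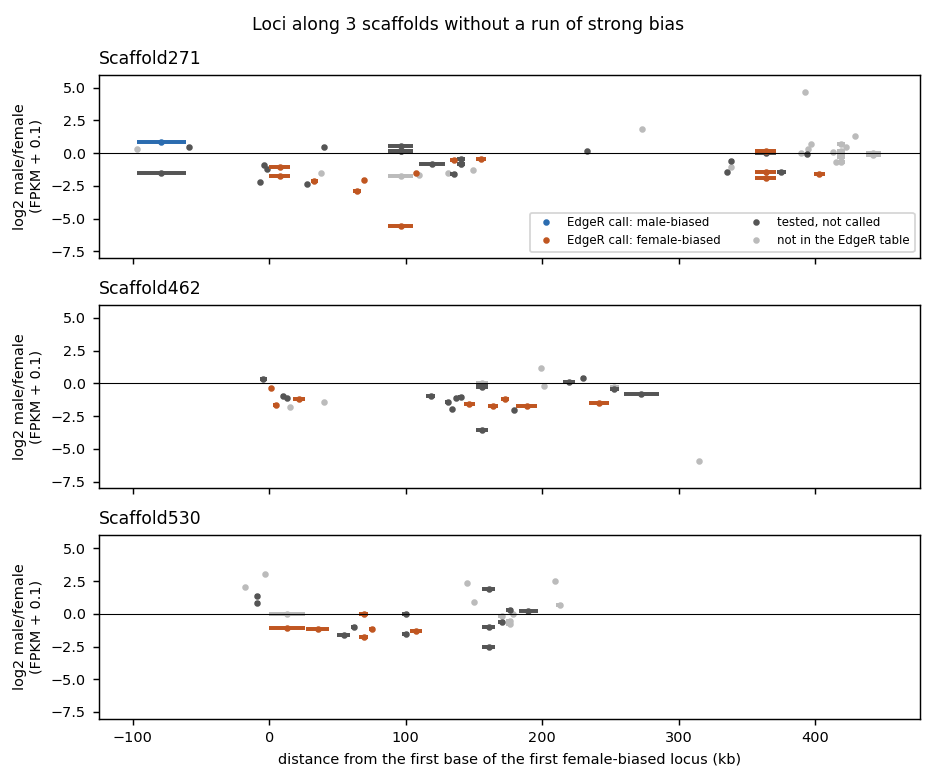
Loci of Scaffold271, Scaffold462 and Scaffold530, with distance in kb from the first base of the first female-biased locus on the x axis and the log2 ratio of male to female FPKM (0.1 FPKM added to each) on the y axis. Bars span each locus and colours give the authors' edgeR call, and 3 loci without a call fall outside the drawn range, at 7.33, -24.2 and 21.8. Female-biased loci lie mostly between -1 and -3 over long distances, with 1 locus of Scaffold271 below -5.

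The 2 tools worked on the same libraries, so their values are given side by side and one does not support the other. Of the 26 run loci, 23 had the status OK and 14 were called by Cuffdiff, while 9 were tested and not called. Of the 22 run loci that Cuffdiff tested with a finite fold change, 6 were below -7 on the log2 scale in the authors' deposited table, and 1 of these 6 was called. The lowest of the 22, GENE_0148983 with -17.38 by Cuffdiff and -6.60 by edgeR in the authors' deposited table, shares its position with 3 other loci. In the authors' set shared by 3 methods stood 12 run loci, and the authors' deposited table lists their Trinity mode log2 fold changes between -9.34 and -4.23. Over the 8 scaffolds that set held 7 male-biased and 19 female-biased loci, beside 3.59% of all loci tested by edgeR.

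**Figure D5:**
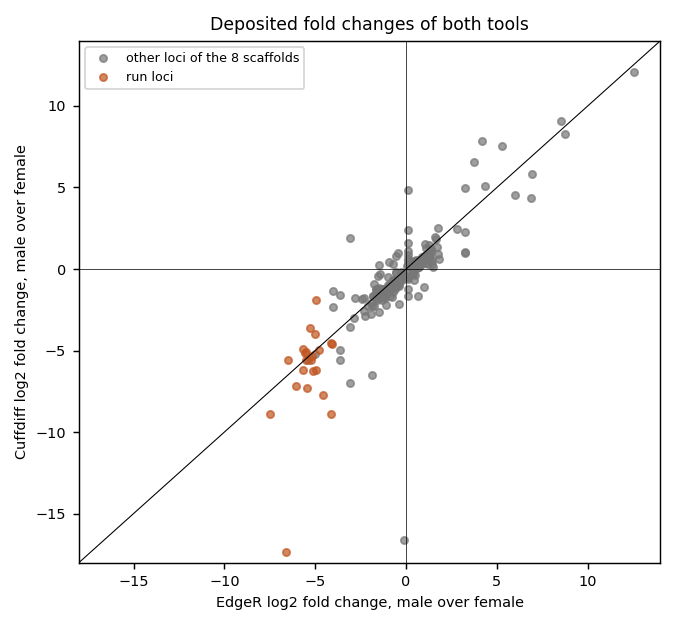
Log2 fold change (male over female) by edgeR on the x axis and by Cuffdiff on the y axis for the 216 loci of the 8 scaffolds that edgeR tested and that have the status OK and a finite value in Cuffdiff, with the line of equal values. Each point is 1 locus, and run loci are drawn in a second colour. The 22 run loci drawn lie at the lower left, where both tools give lower levels in males, and run loci with the status NOTEST or an infinite value are not drawn.

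Span and isoform number were not used to choose the scaffolds. Overlap was no criterion either, but each overlapping locus counts toward the 4 loci of a run, so the rule favours overlap. These features are described without a test, since loci at the same position are not independent. The median listed span was 6024 bases for the 26 run loci, 3918 for the other 478 loci of the 8 scaffolds and 3827 for the other 61069 placed loci. Of the run loci, 57.7% overlapped another locus, beside 36.6% of the other loci of the scaffolds and 40.5% of those elsewhere. Only 1 run locus (3.85%), GENE_0004512, had more than 1 isoform, beside 11.1% of the other loci of the scaffolds and 7.87% of those elsewhere. The median of the average log2 CPM over the libraries was 4.86 for the run loci in the authors' deposited table, beside 3.15 for the other tested loci of the scaffolds. Run loci had to be called by edgeR, so this level is not independent of the rule.

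Since 25 of the 26 run loci had a single isoform, their isoform values largely repeat the values of the loci. The 26 run loci had 28 isoforms, all tested in the authors' deposited edgeR isoform table, of which none was male-biased and 24 were female-biased, with a median log2 fold change of -5.03. Of the 330 tested isoforms of the other loci of the 8 scaffolds, 18 were male-biased and 31 female-biased, beside 5.64% and 6.69% of all 47585 isoforms tested in the series. GENE_0004512 on Scaffold346 had 3 isoforms at -5.07, -5.29 and -4.98 on the log2 scale, and the third was not called. GENE_0028914 on Scaffold271 had 2 isoforms, of which 1 had 6.70 FPKM in males and 299 FPKM in females and the other 0.00426 FPKM in males and 22.1 FPKM in females.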

How the data were processed

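Strand-specific poly(A) libraries were made from pooled whole adults, 2 of males and 2 of females, and per the submitters' processing notes TopHat, Cufflinks, Cuffdiff and edgeR were used, in versions that are not named. The genome build, the counting and its use of strand are not given in the sources used here, so overlapping loci may share reads. The deposited Cuffdiff tables hold 1 pooled FPKM per sex, a log2 fold change, a p-value and an adjusted p-value, per the file headers. Per the file headers, the deposited edgeR tables list an average log2 CPM, a log2 fold change and its p-value and adjusted p-value.

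The authors' edgeR table named for the Trinity mode was read as the full gene map comparison, since all 6733 loci of the table named for the gene map mode stand in it with identical fold changes. Loci were joined by ID: 33763 of 37449 loci of the authors' edgeR table matched the Cuffdiff table. Trinity mode values came from the shared set of 1343 loci. Deposited starts count from 0 and were raised to count from 1. No new test was run, as the tables give no spread between libraries, and intervals of medians are order-statistic 95% intervals over loci.

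Reads per sex were solved from the average log2 CPM and log2 fold change of the authors' edgeR table, with prior counts of 2 a library and of 0.237 (males) and 0.263 (females), and a total of about 5119000 reads over the 4 libraries, fitted so that low loci come out whole. Within 0.1, 99.97% of 9986 loci under 6 reads came out whole in both sexes, and 89.6% of 24044 under 40, so larger values are approximate. Ratios have exact Clopper-Pearson 95% counting intervals, and the floor was 3 reads. Ratios and bounds were scaled by the ratio of the fitted prior counts of the sexes. Run finding and read solving were tested on simulated data.

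Loci were named by rule: every run locus, loci of at least 1 FPKM between them or nearest beyond each edge, and the most male-biased locus of each scaffold. All other loci named, among them those of the scaffolds without a run, and the rows and streaks of loci were picked after their values were seen. The scaffolds, members and lists were chosen with earlier results of these data known. Alternatives changed the call, the fold limit, the gap, overlaps, the FPKM minimum and the pseudocount. The versions were Python 3.11.15, pandas 2.3.3, numpy 2.4.6, matplotlib 3.10.9 and scipy 1.17.1.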

Additional observations from a re-analysis of the deposited data

How the results depend on the processing

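The count of female-biased loci on the 8 scaffolds, 65, was 35 at an adjusted p under 0.001, 35 without overlapping loci, 64 with a floor of 1 on the absolute log2 fold change and 71 by Cuffdiff. The male-biased count of 21 ranged from 14 to 27 under the same changes. The 26 run loci on 5 scaffolds were 26 on 5 at a limit of -3 or with gaps up to 100000 bases, 18 on 3 with gaps up to 20000 bases, 10 on 2 at a limit of -5 and 10 on 2 with overlapping loci counted once. With Cuffdiff's fold change and call they were 4 on 1. At limits chosen after seeing the data, any female-biased call gave 54 loci on 8 scaffolds and a limit of -1 gave 53 on 8, so the 3 scaffolds without a run have one only at the looser limits. The median log2 ratio of -0.84 was 0 with no filter on low values, where 246 of 504 loci (48.8%) had the higher female value in place of 117, and 61 of 95 (64.2%) had it at 5 FPKM or more. The runs' share of summed FPKM was 0.00546% in males and 0.0160% in females, 0.00134% and 0.00576% without the highest locus of each run, and 1.04% and 24.7% without loci under 300 bases (chosen after seeing the data), since 3 loci of 101 bases hold most of the sums. Of 43 named loci, the log2 ratio of FPKM moved for 23 with a pseudocount of 0.01 and for 31 with 1, while edgeR's fold change moved 23 and reversed GENE_0103304, to 13.25. No paired analysis was possible because the tables hold 1 pooled value per sex and none per library. For the same reason leaving out each library in turn was not run, and a library that stands apart could not be looked for.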

Other observations

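Extreme FPKM values on the 8 scaffolds came from loci of 101 bases. GENE_0082734 on Scaffold271, at bases 554885 to 554985, was listed at 0 in males and at 1880880 FPKM in females. GENE_0139069 on Scaffold303, at bases 237416 to 237516, was listed at 0 in males and at 1477830 FPKM in females. GENE_0153842 on Scaffold462, at bases 23141 to 23241, had 364006 FPKM in males and was listed at 0 in females. None of them was called or stood in the edgeR table. Over the series 143 placed loci exceeded 100000 FPKM, of which 120 spanned at most 101 bases, 129 were listed at 0 in one sex and 29 were called by Cuffdiff.

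Strong biases of both directions stood close to each other on 3 of the scaffolds with a run. The distance from the run to a strongly male-biased locus was 13248 bases on Scaffold303 and 301 bases on Scaffold346. On Scaffold259 the male-biased GENE_0103304 began at base 532185, and the run ended at base 525983. Whether such neighbours are more common than elsewhere in the genome was not tested.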
